A study of Mus musculus with 9 samples.

Results

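The 10 genes described here encode the laminin chains, nidogens, perlecan and agrin of the muscle basement membrane. They are Lama2, Lama4, Lama5, Lamb1, Lamb2, Lamc1, Nid1, Nid2, Hspg2 and Agrn, chosen by gene name, and each of the 10 was found once in both deposited tables. The table of TAC against sham quadriceps listed 587 genes, all with secreted products, and the quadriceps and heart table listed 35745 transcripts of 24537 gene names. All 10 members passed the filter on low counts in both tables.

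RNA was sequenced from whole tissue of wild-type C57Bl/6J mice, male by the study's methods. Surgery was done at 8 weeks of age by the labels, either transverse aortic constriction (TAC), which narrows the aorta against a 27-gauge needle and loads the left ventricle with pressure, or a sham operation. Tissue was taken 12 weeks later. The 3 groups were sham heart, sham quadriceps and TAC quadriceps, with 3 libraries each, and no group carried a transgene or deletion. One column of TAC counts was numbered 4, although the labels number the TAC samples up to 3, and it is called TAC library 4 here. The study describes its replicates as biological, the labels do not tie a library to a mouse, and the p-values measure the spread between libraries. The sham quadriceps libraries entered both comparisons.

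A basement membrane is a thin sheet of matrix that wraps each muscle fibre, capillary and nerve. Laminins are trimers of an α, a β and a γ chain that polymerize on the cell surface. Collagen IV forms a network of its own, and the nidogens and perlecan join it to the laminin layer. In skeletal muscle the laminin with the Lama2 chain is the main form around fibres, and its loss causes a congenital muscular dystrophy, whereas the Lama4 and Lama5 chains are prominent in vessels and at the nerve-muscle synapse. Dystroglycan, encoded by Dag1, anchors these proteins to the fibre through its sugar chains.

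Library totals ranged from 23383452 to 48999600 counts over the 8 libraries whose total was used. The TAC table held between 689630 and 1326011 counts per library. Because that table is a selected part of each library, TMM normalization (trimmed mean of M values) centred the comparison on the listed genes, and every TAC result was also computed with library totals for 5 of the 6 libraries, the total of TAC library 4 being not used. The median log2 fold change of all 586 tested genes was 0.03 with TMM and -0.63 with library totals, so changes were read relative to these medians. In the heart table the corresponding medians were -0.06 and -0.80. The tissue labels fitted the markers, with 6 of 6 skeletal fibre markers higher and 6 of 6 cardiomyocyte markers lower in quadriceps than in heart.

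In TAC quadriceps, 4 members were higher than in sham quadriceps relative to the listed genes, and 1 was lower. The higher genes were Lama5, Agrn, Lamc1 and Lamb2, with fold changes from 1.60 to 2.29, and the lower gene was the nidogen Nid1, at 1.58-fold lower (edgeR quasi-likelihood test, Benjamini-Hochberg adjusted p under 0.05, n = 3 per group). Over all 586 tested genes, 17.7% were called higher and 11.9% lower. With library totals, none of the 10 members was called higher, and Nid1 and Nid2 were called lower, against 3.41% and 30.7% of all tested genes. The median log2 fold change of the members was 0.45 with TMM and -0.31 with library totals, in both cases above the median of all tested genes. In whole tissue, fewer cells of a type and less RNA per cell cannot be told apart.

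**Figure D1:**
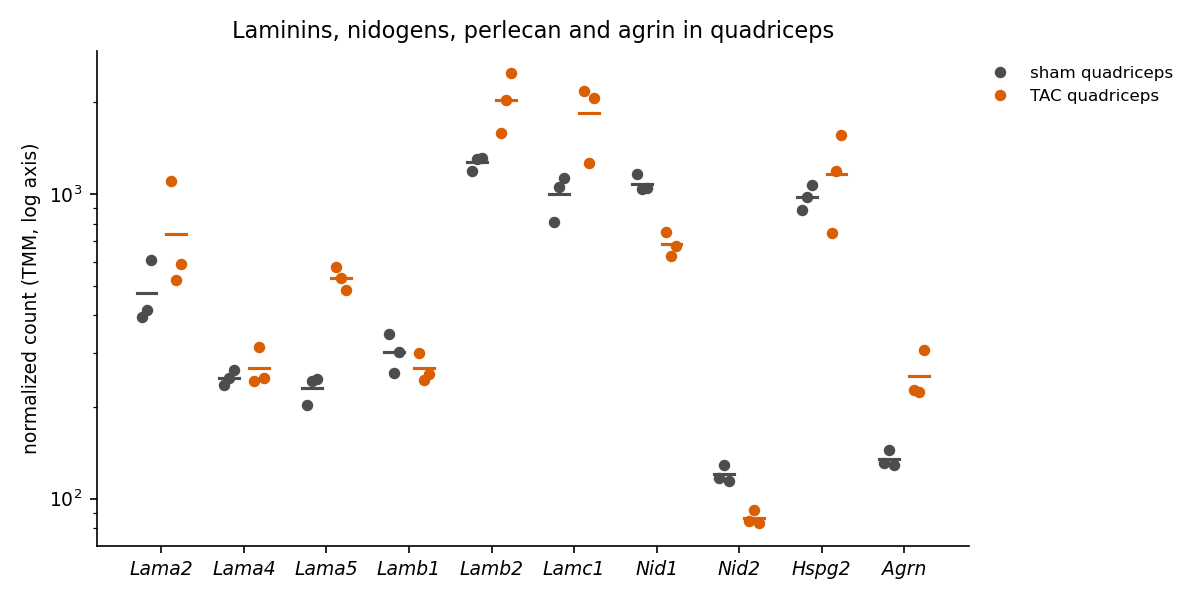
Normalized counts (TMM over the listed genes, log axis) of the 10 members in 3 sham and 3 TAC quadriceps libraries. Points are libraries and lines are group means. The points of Lama5, Lamb2, Lamc1, Nid1, Nid2 and Agrn did not overlap between the groups.

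The groups did not overlap for 6 of the 10 members, Lama5, Lamb2, Lamc1, Agrn, Nid1 and Nid2, against 47.3% of all tested genes. A normalized count is a raw count after scaling every library to 1 common TMM-adjusted size, the average over the 6.

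Among the α chains, Lama5 had the largest difference. Sham quadriceps had normalized counts of 203, 244 and 247 for this gene, and the TAC libraries numbered 1, 2 and 4 had 577, 529 and 485. Every TAC library was well above every sham library. The log2 fold change was 1.20 ± 0.22 (SE), with an adjusted p of 0.00813 by edgeR. Lama5 was also the one member whose call held in 6 of 6 fits that left out a library, with adjusted p from 0.00976 to 0.0478 by edgeR. With library totals the log2 fold change was 0.63 ± 0.23, with an adjusted p of 0.0712. Lama5 lies on the minus strand at chr2:180176373-180225859 (mm10) and encodes an α chain that is widespread in epithelial and vascular basement membranes.

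Lama2, the α chain of the fibre basement membrane, was spread more widely. Its normalized counts were 394, 416 and 606 in sham and 1106, 522 and 588 in TAC. TAC library 1 stood apart at about the sum of the other 2 TAC libraries, which lay within the sham range. The log2 fold change was 0.65 ± 0.33 with an adjusted p of 0.176, and it dropped to 0.17 without TAC library 1 (adjusted p = 0.688, edgeR). Lama4, the other vascular α chain, had normalized counts of 236, 249 and 265 in sham and 244, 315 and 248 in TAC. These groups overlapped, and the log2 fold change was 0.11 ± 0.22 (adjusted p = 0.744, edgeR), and -0.48 with library totals, above the median of all tested genes in both cases.

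The 5′ flanks of Lama5, Agrn and Nid1 were read from RefSeq (GRCm38.p6), to show the sequence next to members that moved in opposite directions. With TMM over the 6 libraries, Lama5 and Agrn had the largest rises and Nid1 was the one member called lower. Windows of 250 bases before a RefSeq start were matched for 7 of the 10 members, with 8 windows because Agrn had 2, and none was matched for Lama4, Lamc1 and Nid2. Each is given 5′ to 3′ on the gene's strand, with the GC box letters GGGCGG, or their reverse complement CCGCCC, in capitals. The windows are chr2:180225860-180226109 for Lama5 and chr4:156197489-156197738 for Agrn, both on the minus strand and ending at the annotated gene start, and chr13:13437352-13437550 for Nid1, on the plus strand and cut where the annotated gene begins.
Lama5: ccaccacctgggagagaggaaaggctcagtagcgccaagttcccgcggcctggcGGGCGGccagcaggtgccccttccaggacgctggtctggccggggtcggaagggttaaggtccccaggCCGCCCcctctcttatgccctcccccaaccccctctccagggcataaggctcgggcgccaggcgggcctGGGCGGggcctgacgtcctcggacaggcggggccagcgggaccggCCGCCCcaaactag
Agrn: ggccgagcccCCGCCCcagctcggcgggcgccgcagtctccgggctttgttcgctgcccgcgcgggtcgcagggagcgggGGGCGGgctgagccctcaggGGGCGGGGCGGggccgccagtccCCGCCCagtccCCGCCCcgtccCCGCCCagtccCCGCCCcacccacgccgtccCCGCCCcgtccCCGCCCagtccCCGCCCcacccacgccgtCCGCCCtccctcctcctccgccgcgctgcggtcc
Nid1: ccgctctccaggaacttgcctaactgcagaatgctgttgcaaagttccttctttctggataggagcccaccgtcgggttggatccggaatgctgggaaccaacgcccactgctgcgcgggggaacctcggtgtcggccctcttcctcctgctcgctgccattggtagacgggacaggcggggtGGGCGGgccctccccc
GGGCGG was present on either strand in 6 of the 8 member windows and in 32.7% of all 32851 RefSeq windows of this length. It occurred 4 times before Lama5, 12 times before Agrn with overlapping matches counted, and once before Nid1. Lama2 and Lamb2 had no match, and the 2 other windows with the box were those of Lamb1 and Hspg2, with 2 and 5 matches, beside 2 in the second Agrn window. The Lama2 window and the second Agrn window lay wholly inside the annotated gene, so they do not show the flank of its annotated start. The letters TATAAA were in none of the member windows and in 7.59% of all windows. The GC content of the member windows ran from 43.6% to 83.6%, with a median of 52.4% over all windows. These matches describe letters in the windows and no binding was measured.

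Of the β chains, Lamb2 was called higher and Lamb1 was not called. Lamb2, the β chain enriched at the nerve-muscle synapse and in vessel walls, had normalized counts of 1191, 1308 and 1313 in sham and 1583, 2036 and 2492 in TAC, with no overlap. Its log2 fold change was 0.68 ± 0.22 with an adjusted p of 0.0456 (edgeR), and -0.13 with library totals (adjusted p = 0.632), above the median of all tested genes in both cases. Lamb1, the more widely expressed β chain, had normalized counts of 347, 258 and 302 in sham and 300, 246 and 257 in TAC. These groups overlapped, with a log2 fold change of -0.18 ± 0.23 (adjusted p = 0.590, edgeR), and -0.81 ± 0.31 with library totals (adjusted p = 0.0760).

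Lamc1 encodes the γ chain shared by most laminins. Its normalized counts were 811, 1052 and 1130 in sham and 2181, 1264 and 2072 in TAC. TAC library 2 lay close to the sham range and the other TAC libraries far above it. The log2 fold change was 0.88 ± 0.26 with an adjusted p of 0.0352 (edgeR), and 0.16 ± 0.27 with library totals (adjusted p = 0.645). Both log2 fold changes were above the median of all tested genes with the same scaling.

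Both nidogens were below sham in every TAC library. Nid1 had normalized counts of 1162, 1037 and 1045 in sham and 750, 625 and 677 in TAC. Its log2 fold change was -0.66 ± 0.19 with an adjusted p of 0.0337, and -1.31 ± 0.25 with library totals (adjusted p = 0.0108, edgeR). Nid2, the less abundant nidogen, had normalized counts of 117, 129 and 114 in sham and 84.3, 92.0 and 83.1 in TAC. It did not pass the test with TMM (log2 fold change -0.47 ± 0.22, adjusted p = 0.132) and did with library totals (-1.09 ± 0.28, adjusted p = 0.0221, edgeR). These tests were against 0, and the median of all tested genes was 0.03 with TMM and -0.63 with library totals. With library totals 30.7% of all tested genes were called lower. Nid2 overlaps Rtraf on the opposite strand and no source states whether the counting used strand, so its counts may include reads of that gene. Nid1, Lama2 and Lamc1 also overlap annotated genes on the opposite strand. Lama2, Lama5, Lamc1 and Hspg2 overlap annotated genes on their own strand.

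Of the heparan sulphate proteoglycans, Agrn was called higher and Hspg2 was not called. Agrn encodes agrin, which gathers acetylcholine receptors at the nerve-muscle synapse through the receptor LRP4 and the kinase MuSK, and binds dystroglycan. Its normalized counts were 131, 145 and 129 in sham and 228, 224 and 307 in TAC, with no overlap. The log2 fold change was 0.91 ± 0.24 with an adjusted p of 0.0224 (edgeR), and 0.10 with library totals (adjusted p = 0.772), above the median of all tested genes in both cases. The neural isoform of agrin could not be told from others, because 1 transcript row was listed. Hspg2, which encodes perlecan, had normalized counts of 887, 979 and 1070 in sham and 743, 1186 and 1566 in TAC. Its TAC libraries spanned the sham range on both sides, and the log2 fold change was 0.25 ± 0.28 with TMM (adjusted p = 0.526), -0.12 without TAC library 4 and -0.66 with library totals, near the median of all tested genes (edgeR).

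The calls of Agrn, Lamb2, Lamc1 and Nid1 were lost in most fits that left out a library, whichever group it came from. Over all tested genes, leaving out a library gave 25 to 113 higher and 35 to 102 lower calls, against 104 and 70 with all 6 libraries. Agrn passed in 2 of 6 fits that left out a library, those without TAC library 1 or 2, and missed without TAC library 4 (adjusted p = 0.0627) or any sham library (up to 0.108). Lamb2 passed only without TAC library 1 (adjusted p = 0.0361), Lamc1 only without TAC library 2 (0.00974) and Nid1 only without TAC library 1 (0.0371), all by edgeR. In the remaining 5 fits, adjusted p by edgeR ran up to 0.150 for Lamb2 and Lamc1 and up to 0.119 for Nid1. The signs of these log2 fold changes stayed the same in all 6 fits.

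**Figure D2:**
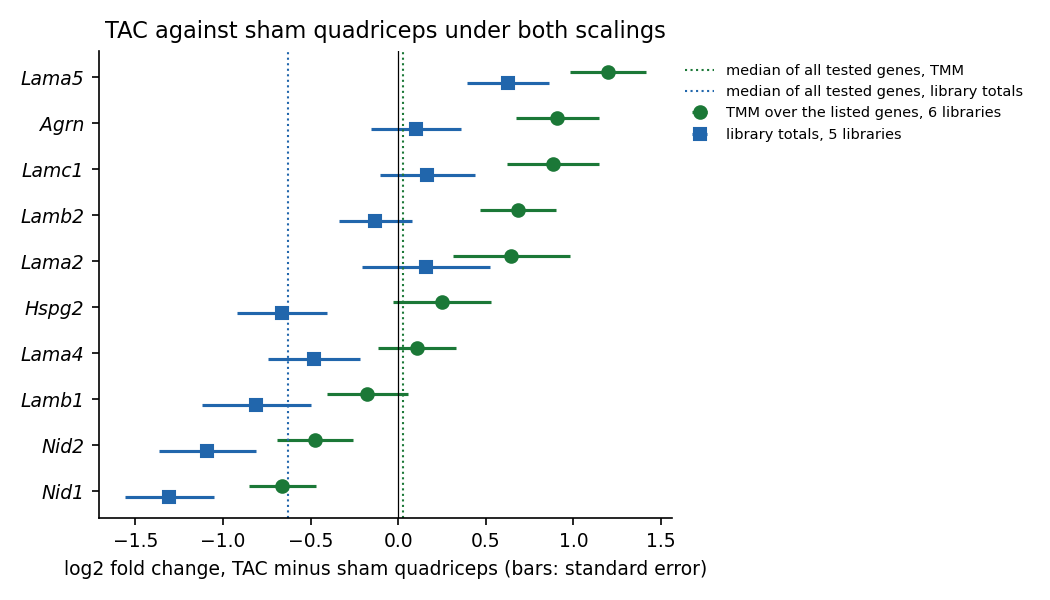
Log2 fold change of TAC against sham quadriceps for each member, with TMM over the listed genes (circles, 6 libraries) and with library totals (squares, 5 libraries). Bars are standard errors and dotted lines are the medians of all tested genes, 0.03 and -0.63. Lama5 was the highest and Nid1 the lowest member under both scalings, and Lama4 and Lamb2 lay above the median of all tested genes under both, although below 0 with library totals.

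Ratios of one gene to another within a library do not depend on the scaling between libraries, and 8 of them were tested with a two-sided exact permutation test, adjusted over the 8. With 3 against 3 libraries the smallest p is 0.1, so none could pass 0.05. All ratios were of counts per transcript length. The ratio of Lamb1 to Lamb2 was 0.284, 0.192 and 0.224 in sham quadriceps and 0.185, 0.117 and 0.101 in TAC. The highest TAC value lay just under the lowest sham value, and the difference in log2 was -0.83 (exact permutation p = 0.1, adjusted 0.2). The ratio of Agrn to Hspg2 was 0.283, 0.283 and 0.232 in sham and 0.588, 0.362 and 0.376 in TAC, a log2 difference of 0.70 with no overlap (exact permutation p = 0.1, adjusted 0.2).

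Some members were also set against Col4a1, which encodes a chain of the most widespread collagen IV. The row used was 1 of 2 transcript rows of this gene, and RefSeq labels that transcript as non-coding. The ratio of Lamc1 to Col4a1 was 0.671, 0.981 and 1.0 in sham and 2.88, 1.09 and 3.24 in TAC. All 3 TAC values were higher than the sham values, 1 of them narrowly, and the log2 difference was 1.31 (exact permutation p = 0.1, adjusted 0.2). The ratio of Hspg2 to Col4a1 differed by 0.65 in log2 with no overlap (exact permutation p = 0.1, adjusted 0.2), but by 0.22 without TAC library 4. The remaining 4 ratios overlapped between the groups. Their log2 differences were -0.49 for Lama4 to Lama2, 0.61 for Lama5 to Lama2, 0.19 for Nid2 to Nid1 and -0.20 for Nid1 to Col4a1, the last turning to 0.10 without TAC library 2.

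**Figure D3:**
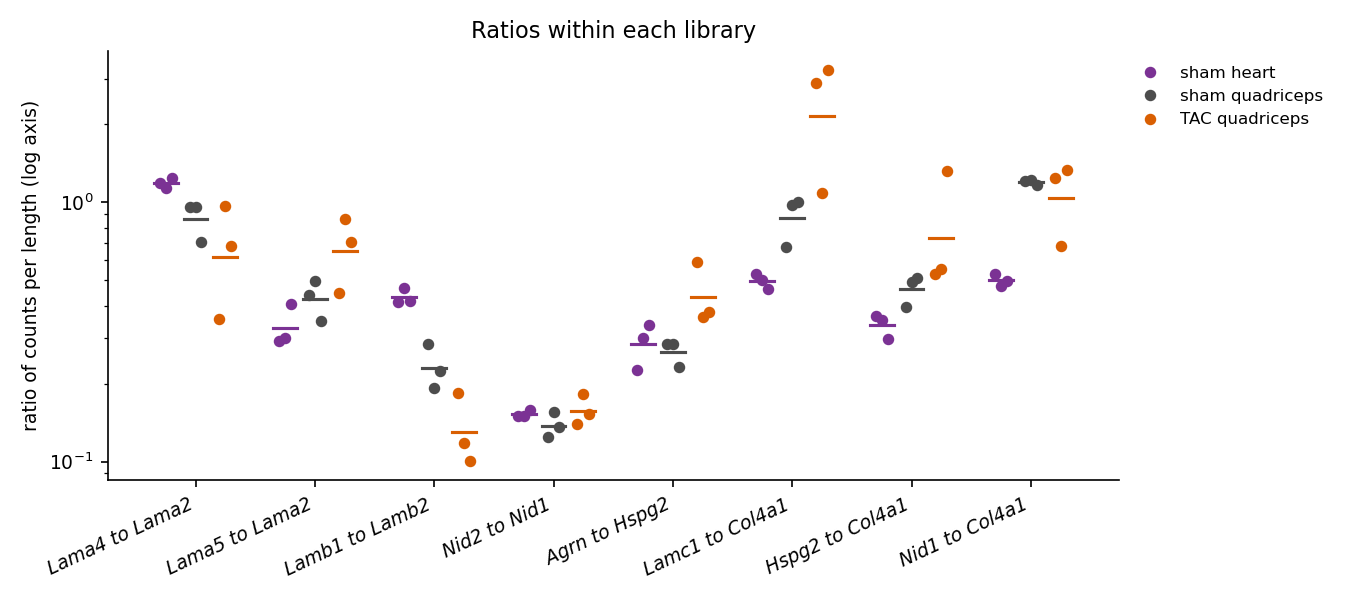
Ratios of counts per transcript length within each library (log axis) in sham heart, sham quadriceps and TAC quadriceps. Points are libraries and lines are geometric means of 3 libraries. Lamb1 to Lamb2 was highest in heart, lower in sham quadriceps and lowest in TAC quadriceps, with no overlap between neighbouring groups.

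As shares of the 3 measured α chains, counted per length, Lama5 made up 18.3%, 20.3% and 17.0% in the sham quadriceps libraries and 24.7%, 30.5% and 29.5% in TAC. The share of Lama4 was 40.0%, 39.0% and 34.3% in sham and 19.7%, 34.2% and 28.5% in TAC, so the highest TAC value lay just under the lowest sham value. Lama2 held 43.7% ± 4.40 in sham and 44.3% ± 10.3 in TAC (SD, n = 3), and its TAC libraries spanned 35.3% to 55.6%. Of the β chains, Lamb2 made up 77.9%, 83.9% and 81.7% in sham and 84.4%, 89.5% and 90.9% in TAC. Nid1 held 87.9% ± 1.16 of the nidogens in sham and 86.4% ± 1.64 in TAC, with overlapping ranges.

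**Figure D4:**
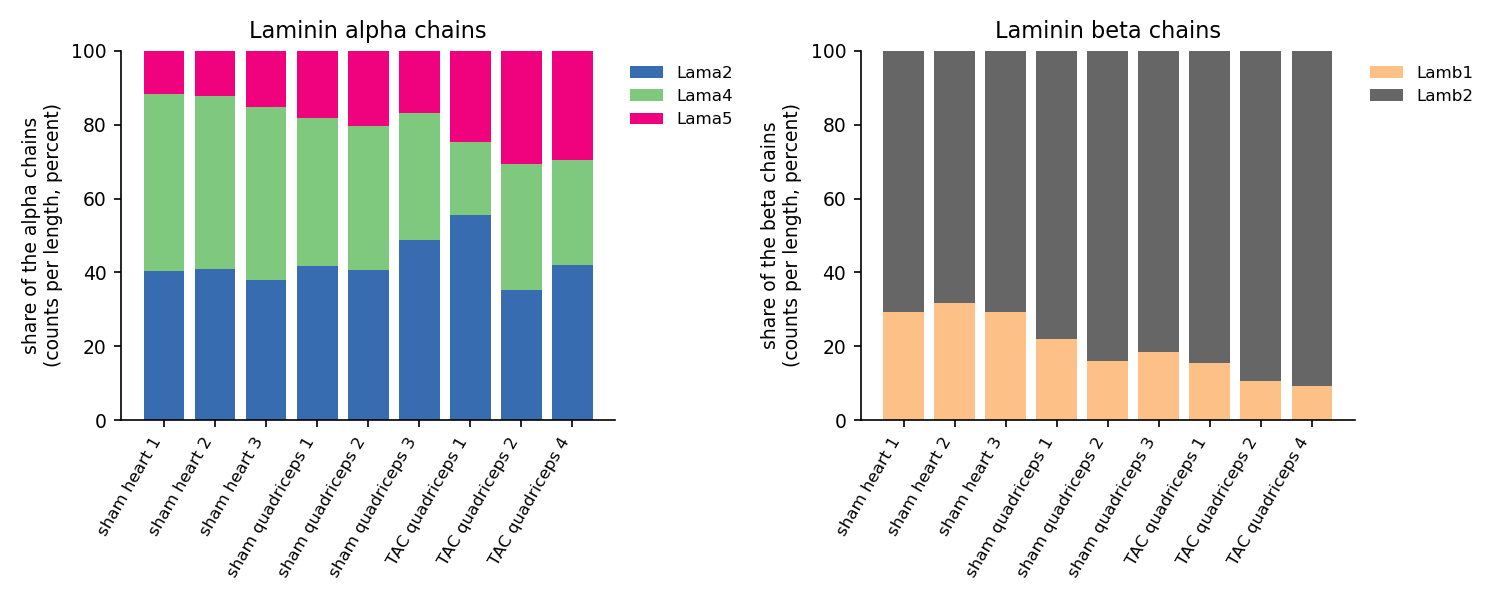
Shares of the laminin α chains (left) and β chains (right) in each of the 9 libraries, as percent of the summed counts per transcript length. Lama5 averaged 13.1% of the α chains in heart, 18.5% in sham quadriceps and 28.3% in TAC quadriceps.

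Of 27 other basement membrane components, 15 were listed in the TAC table and tested, with 1 higher, 1 lower and a median log2 fold change of -0.37, beside 17.7% higher and 11.9% lower over all tested genes. The higher gene was Tinagl1, a matricellular protein of vascular basement membranes, with a log2 fold change of 1.24 ± 0.35 (adjusted p = 0.0308, edgeR; 0.82 and 0.0836 with library totals). The lower gene was Col15a1, which encodes a collagen of the outer face of muscle basement membranes, at -2.09 ± 0.49 (adjusted p = 0.0178, edgeR). With library totals, 0 of the 15 were higher and 8 lower, beside 3.41% and 30.7% of all tested genes.

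Col4a1 and Col4a2 did not pass with TMM. Col4a1 had normalized counts of 1048, 930 and 978 in sham and 657, 1006 and 555 in TAC, with a log2 fold change of -0.41 ± 0.26 (adjusted p = 0.257), and -0.90 with library totals (adjusted p = 0.0405, edgeR). The log2 fold change of Col4a2 was -0.24 ± 0.26 (adjusted p = 0.520) and -0.67 with library totals (adjusted p = 0.0553, edgeR). The tests with library totals were against 0, where the median of all tested genes was -0.63. TAC library 2 held the highest value of both genes among the TAC libraries.

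Dag1, the only one of 15 receptors in the TAC table, was higher, at 2748 ± 292 normalized counts in sham and 5454 ± 1464 in TAC (SD, n = 3). Its log2 fold change was 0.99 ± 0.24 with an adjusted p of 0.0189, and 0.41 with library totals (adjusted p = 0.223, edgeR), above the median of all tested genes in both cases. The 5 other laminin chain genes had no row in the TAC table.

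Some cell type markers moved as well. The 3 of 8 endothelial markers in the TAC table, Vwf, Flt1 and Pecam1, were all higher, with log2 fold changes of 0.84, 0.76 and 0.63, and their summed normalized counts were 1710 to 1824 in sham and 2498 to 3071 in TAC. With library totals 0 of the 3 were called and their median was 0.09, where the median of all tested genes was -0.63. Of the 5 fibroblast markers listed out of 6, Col1a1, Col1a2, Col3a1 and Lum were lower and Dcn was not called (0.17, adjusted p = 0.601, edgeR), with summed normalized counts of 9959 to 12749 in sham and 6086 to 9179 in TAC. Lyz2, the only 1 of 6 macrophage markers in the TAC table, was lower, at 485 to 705 in sham and 195 to 301 in TAC. Cnp, the only 1 of 6 Schwann cell markers there, was at 55.0 to 61.6 and 55.1 to 63.0. Ckm, the only 1 of 6 skeletal fibre markers there, was not called (0.45, adjusted p = 0.278, edgeR), and stood at -0.26 with library totals. The 3 listed adipocyte markers were not called, and their sums overlapped at 315 to 2302 and 415 to 2860. None of the listed markers was at 0 in every library, and the mural cell and cardiomyocyte markers had no row in the TAC table. The part of these cell types in the results for the members was not tested.

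The second comparison set sham quadriceps against sham heart, which the study used to find genes with more expression in skeletal muscle. All 10 members were lower in quadriceps, by 2.40-fold to 6.78-fold, with adjusted p between 4.07e-08 and 7.46e-06 by edgeR. Over all 24280 tested transcripts, 34.4% were called lower and 32.2% higher. The median log2 fold change of the members was -1.94, and -2.69 with library totals, against -0.06 and -0.80 over all tested transcripts. No member overlapped between the tissues, and the share of all transcripts without overlap was not computed. The order of the members by fold put Lamb1 and Lama4 at the lower end and the nidogens at the upper end.

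**Figure D5:**
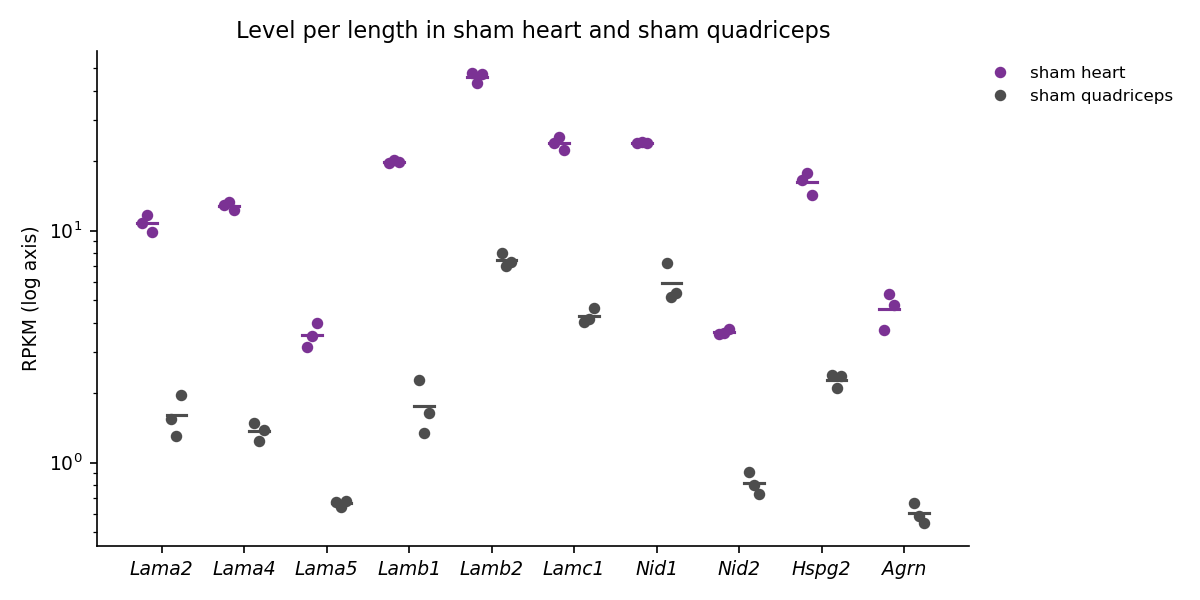
RPKM (counts scaled by transcript length and by the library total, log axis) of the 10 members in 3 sham heart and 3 sham quadriceps libraries. Points are libraries and lines are group means. The lowest heart library was above the highest quadriceps library for each of the 10. The share of all transcripts separated in this way was not computed.

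Levels are given here in RPKM, which also allows comparison between genes. Lama4 stood at 12.9, 13.3 and 12.2 in the heart libraries and at 1.48, 1.24 and 1.37 in quadriceps, and Lamb1 at 19.6, 20.2 and 19.7 against 2.28, 1.35 and 1.64. Their TMM log2 fold changes, -2.48 ± 0.10 and -2.76 ± 0.14, were the lowest of the 10. Lama2 stood at 10.8, 11.7 and 9.87 in heart and 1.54, 1.29 and 1.95 in quadriceps (-2.01 ± 0.15). No quadriceps library came near the heart range for any of these 3 genes.

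Lama5 stood at 3.16, 3.51 and 4.0 RPKM in heart and 0.677, 0.646 and 0.681 in quadriceps, the tightest quadriceps values of the α chains. Lamb2 was the most abundant member of both tissues, at 47.7, 43.3 and 47.4 in heart and 8.03, 7.02 and 7.31 in quadriceps. Lamc1 stood at 23.9, 25.2 and 22.2 against 4.03, 4.16 and 4.63. The log2 fold changes of these 3 laminin genes lay close together, at -1.66 ± 0.12, -1.88 ± 0.10 and -1.72 ± 0.12.

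The nidogens had the smallest differences between the tissues. Nid1 stood at 23.8, 24.1 and 23.9 RPKM in heart and 7.27, 5.16 and 5.40 in quadriceps (log2 fold change -1.27 ± 0.11), and Nid2 at 3.58, 3.61 and 3.78 against 0.907, 0.798 and 0.730 (-1.42 ± 0.11). Hspg2 stood at 16.5, 17.7 and 14.2 against 2.37, 2.09 and 2.36 (-2.07 ± 0.12). Agrn stood at 3.73, 5.30 and 4.76 against 0.672, 0.590 and 0.548 (-2.17 ± 0.15). Col4a1 and Col4a2 were lower too, by -2.53 ± 0.12 and -2.46 ± 0.10 in log2.

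The order of levels was similar at its ends in the tissues. In heart it ran from Lamb2 at 46.1 ± 2.46 RPKM through Nid1, Lamc1, Lamb1, Hspg2, Lama4, Lama2, Agrn and Nid2 to Lama5 at 3.56 ± 0.420 (SD, n = 3), a span of 13.0-fold. Nid1 and Lamc1 overlapped, as did Agrn with Nid2 and Nid2 with Lama5. In sham quadriceps it ran from Lamb2 at 7.45 ± 0.520 through Nid1, Lamc1, Hspg2, Lamb1, Lama2, Lama4, Nid2 and Lama5 to Agrn at 0.603 ± 0.0630, a span of 12.4-fold. There Lamb2 overlapped Nid1, the values of Hspg2, Lamb1, Lama2 and Lama4 overlapped from each to the next, and Lama5 overlapped Agrn.

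In TAC libraries 1 and 2, whose RPKM values were used, Lamb2 stood at 6.01 and 7.60, Lamc1 at 6.10 and 3.47 and Nid1 at 2.64 and 2.16. Lamc1 was above Nid1 in both of these, where sham quadriceps had Nid1 above Lamc1, and the RPKM of TAC library 4 was not used. Nid2 was the lowest member, at 0.368 and 0.395, and Lama5 stood at 1.08 and 0.976, above the sham quadriceps values of 0.646 to 0.681.

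The make-up of the laminins differed between heart and quadriceps. Lama4 was the leading α chain of heart, at 47.2% ± 0.668 of the α chains, and held 37.8% ± 3.07 in sham quadriceps, where Lama2 led at 43.7% (SD, n = 3). Lamb1 made up 30.1% ± 1.49 of the β chains in heart and 18.8% ± 3.04 in sham quadriceps. The ratio of Lamb1 to Lamb2 was 0.412, 0.467 and 0.415 in heart, above the 3 quadriceps values, a log2 difference of -0.90 for quadriceps minus heart (exact permutation p = 0.1, the smallest possible, adjusted 0.16). The ratio of Nid1 to Col4a1 was 0.527, 0.478 and 0.499 in heart and 1.21, 1.22 and 1.17 in quadriceps, a log2 difference of 1.26 with wide separation (exact permutation p = 0.1, adjusted 0.16).

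Lama4 to Lama2, Lamc1 to Col4a1 and Hspg2 to Col4a1 also did not overlap between the tissues, with log2 differences of -0.46, 0.81 and 0.46 (exact permutation p = 0.1 each, adjusted 0.16). Lama5 to Lama2 (0.37), Nid2 to Nid1 (-0.15) and Agrn to Hspg2 (-0.10) overlapped, the last at 0.226, 0.299 and 0.336 in heart around the quadriceps values. Without heart library 3 the difference of Agrn to Hspg2 was 0.025.

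Of the 5 other laminin chains, 4 were tested against heart and 3 were lower in quadriceps. Lamb3 and Lama3, which encode chains of epithelial laminins, had log2 fold changes of -4.02 ± 0.20 and -0.62 ± 0.18. Of the 27 other basement membrane components, 26 were tested, with 21 lower, 2 higher and a median of -1.90. Over all tested transcripts, 34.4% were lower and 32.2% higher. Ntn1, a netrin, Papln and the collagen IV chain gene Col4a5 were the lowest, at -4.14, -3.94 and -3.78. The higher genes were Npnt, an integrin ligand, at 5.13 ± 0.30, and Egflam, which encodes the dystroglycan ligand pikachurin, at 2.97 ± 0.29, and both stayed higher with library totals.

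Among the 15 receptors and syndecans, 11 were lower and 3 higher in quadriceps, beside 34.4% lower and 32.2% higher over all tested transcripts. Bcam, a laminin receptor that binds the Lama5 chain, was lowest at -3.28 ± 0.11, followed by Sdc3 at -1.72 and Itga1 at -1.67. Musk, the kinase of the agrin pathway, was highest, at 2.77 ± 1.21 normalized counts in heart and 291 ± 87.6 in quadriceps (SD, n = 3; log2 fold change 6.67 ± 0.37, adjusted p = 4.30e-07 by edgeR). Lrp4, the receptor that agrin binds, was at 0.63 ± 0.14 and Sdc4 at 0.57 ± 0.18, and both were above the median of all tested transcripts with library totals too, at -0.12 and -0.19. Agrn itself was thus lower in quadriceps while Musk was higher under both scalings.

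Of the 13 glycosylation genes, 11 were tested, with 5 lower and 3 higher, beside 34.4% lower and 32.2% higher over all tested transcripts. B3galnt2, a sugar transferase of the dystroglycan glycan, was higher by 2.79 ± 0.10 in log2, and 2.04 with library totals. Pomk, a kinase that acts on the same glycan, was higher by 0.68 ± 0.11 with TMM and at -0.07 with library totals, where the median of all tested transcripts was -0.80. Pomgnt1, another sugar transferase of dystroglycan, was lower at -0.58 ± 0.11.

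Markers of several cell types also differed between the tissues. The 8 endothelial markers were all lower in quadriceps, with summed levels of 178 to 195 RPKM in heart and 34.7 to 44.9 in quadriceps and a median log2 fold change of -1.41. Mural cell sums were 133 to 143 and 51.7 to 83.3 RPKM, with 3 of 5 markers lower by TMM and 5 of 5 by library totals, the scaling of the sums. Fibroblast sums were 297 to 328 and 124 to 197 RPKM, with 3 of 6 lower by TMM and 6 of 6 by library totals. Macrophage sums were 69.3 to 74.1 and 18.7 to 29.9 RPKM, with 4 of 6 lower by TMM and 6 of 6 by library totals. Schwann cell sums were 9.88 to 10.9 and 10.9 to 12.0, with 2 of 6 markers higher under both scalings and 1 lower by TMM or 3 by library totals. Adipocyte sums were 0.542 to 1.98 in heart and 12.4 to 102.7 in quadriceps, with 5 of 5 higher. No marker was at 0 in every library, and the part of these cells in the members' differences was not tested.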

How the data were processed

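RNA-seq was done on 9 libraries of mouse quadriceps and heart. Per the labels and the study's methods, the authors made libraries with the ScriptSeq kit, used Trim Galore for trimming and STAR for alignment (genome mm10), and counted reads per RefSeq transcript. Versions and strand setting are not given in the sources used here. The deposited values used were raw counts and the authors' RPKM, from which library totals were recovered, and transcript lengths. For a gene with several transcript rows, the transcript listed in the TAC table was used, otherwise the one with the most counts. The authors' own fold changes, F values and p-values were not used, and 1 column of a single library was left out, the RPKM of TAC library 4.

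Counts were tested with edgeR 4.0.16 (R 4.3.3) by the quasi-likelihood test after TMM, on rows where 2 or more libraries exceeded 5 counts, over the whole table with Benjamini-Hochberg adjustment. Standard errors are the log2 fold change divided by the square root of F. Scripts were tested on simulated data. Ratios of counts per length were compared with exact permutation tests. Alternatives were DESeq2 1.42.0, limma 3.58.1 on log2(RPKM + 0.5), library totals, other filters, a replicate block and leaving out each library. No libraries of a group were duplicates, the lowest chi-square per degree of freedom being 7.40. The members and gene lists were chosen with earlier results of these data known. The genes named are the 10 members, Col4a1, Col4a2 and, of each other list, at most the 3 called genes of largest change in each direction. Results for some genes that this rule covers are not reported here. Gene positions are from GENCODE vM21 and flanking sequences from RefSeq.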

Additional observations from a re-analysis of the deposited data

How the results depend on the processing

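The TAC calls of the members changed with the scaling, with the leaving out of a library and, for Lamb2, with the count filter. Against 4 higher and 1 lower with TMM and with DESeq2, there were 0 higher and 2 lower with library totals and with limma on RPKM, 1 and 0 with TMM on the 5 libraries whose total was used (an alternative chosen after seeing the data) and 1 and 0 by the study's criterion of an absolute log2 fold change of at least 1. One fit of all 9 libraries gave 4 and 2. Requiring at least 10 counts in every library gave 3 and 1, with Lamb2 no longer called (log2 fold change 0.63, adjusted p = 0.0580, edgeR). Leaving out each library gave 1 to 3 higher and 0 to 1 lower. Library totals and RPKM shift all tested genes down together, to a median of -0.63 with library totals. Log2 fold changes fell below 0 for Lama4 (-0.48 with library totals, -0.34 with limma, -0.021 without TAC library 2, range with a library left out -0.021 to 0.15), Lamb2 (-0.13 with library totals and with limma) and Hspg2 (-0.66 with library totals, -0.53 with limma, -0.12 without TAC library 4, which is the same set of libraries as TMM on 5, range with a library left out -0.12 to 0.43). Over all tested genes, 104 higher and 70 lower became 109 and 80 with DESeq2, 20 and 180 with library totals and 14 and 188 with limma. They became 65 and 71 with TMM on the 5 libraries, 67 and 74 by the study's criterion and 131 and 117 in the fit of all libraries. Requiring 10 counts in every library gave 86 and 72, and leaving out a library gave 25 to 113 and 35 to 102. The fits with library totals and limma also lack TAC library 4. With TMM on the same 5 libraries, log2 fold changes were 0.66 for Agrn, 0.42 for Lamb2, 0.72 for Lamc1 and -0.74 for Nid1. Their adjusted p by edgeR were 0.0627, 0.136, 0.114 and 0.0509, and Lama5 stayed called (1.18, adjusted p = 0.0131). Apart from the common shift under library totals and RPKM, the cause of these changes was not tested.

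Libraries with the same replicate number shared little deviation from their group means. These deviations correlated by 0.05, -0.05 and 0.04 between heart and quadriceps and by 0.06 between the 4 quadriceps libraries numbered 1 and 2. With so few libraries per group, the correlations cannot decide whether samples with the same number were paired. A replicate block on those 4 libraries gave 1 member higher and 0 lower, as did the same libraries without the block. Over all tested genes, 56 were higher and 62 lower with the block, and 49 and 39 without it. In the heart comparison all 10 members stayed lower with the block and under all alternatives that tested them, except that 5 passed the study's log2 fold change of over 2. The share of all transcripts passing that criterion is not reported here. Over all transcripts 7828 higher and 8354 lower became 3241 and 15203 with library totals. Leaving out 1 library turned the ratio of Agrn to Hspg2 between tissues to 0.025 (without heart library 3; range -0.26 to 0.025) and that of Nid1 to Col4a1 under TAC to 0.10 (without TAC library 2; range -0.38 to 0.10). Members had at least 83 counts in every library.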
